A study of Mus musculus with 24 samples.

Results

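The Akr1c genes were chosen by name as a family, with the low kidney signal of Akr1c18 in aged mice already known, and were followed over 4 tissues and 2 ages of mouse. The list held 8 genes: Akr1c6, Akr1c12, Akr1c13, Akr1c14, Akr1c18, Akr1c19, Akr1c20 and Akr1c21. Probes of the array matched 7 of them through RefSeq accessions, with 8 probes of 56605 on the array, and 7 of the 22911 gene symbols with a probe. Akr1c14 had 2 probes and each of the other matched genes had 1, and no probe matched Akr1c20. The kidney comparison of 90-week with 10-week mice is the contrast that selected the genes, so it is given as a description without a test. Liver, lung and white adipose tissue (WAT) were tested.

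The animals were C57BL/6J males, 10 weeks (10W) or 90 weeks (90W) old, with no treatment named in the labels. The organs taken were the liver, lung, kidney and WAT of 3 mice at each age, which gave 24 arrays. The aged livers carry the numbers 1, 2 and 4. Whether a mouse gave more than 1 of the tissues is not stated.

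Akr1c proteins are soluble aldo-keto reductases that use NADPH or NADH to reduce ketone groups on steroids, prostaglandins and foreign carbonyl compounds to alcohols, or run the reverse oxidation. By acting at the 3, 17 or 20 position of the steroid they switch hormones such as progesterone, androgens and estrogens between active and inactive forms. Liver and kidney are known sites of this steroid inactivation, and the mouse genes lie side by side in a cluster.

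On the GRCm38.p6 assembly all 8 genes lay on chromosome 13, in the order Akr1c14, Akr1c18, Akr1c13, Akr1c19, Akr1c12, Akr1c6, Akr1c20 and Akr1c21, followed by Akr1e1. Upstream windows of 250 bases ending at the gene start were taken from RefSeq for 7 of the genes. The first pair shown, Akr1c12 and Akr1c13, is the pair whose array signals were most alike, and capitals mark bases that differ or have no partner in the alignment. The Akr1c12 window is chr13:4279400-4279649 on the minus strand and the Akr1c13 window is chr13:4190937-4191186 on the plus strand.
Akr1c12: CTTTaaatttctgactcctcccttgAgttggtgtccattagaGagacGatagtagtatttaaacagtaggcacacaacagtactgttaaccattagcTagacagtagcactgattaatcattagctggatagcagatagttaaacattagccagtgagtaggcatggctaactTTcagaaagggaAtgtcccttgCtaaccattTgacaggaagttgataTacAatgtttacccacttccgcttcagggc
Akr1c13: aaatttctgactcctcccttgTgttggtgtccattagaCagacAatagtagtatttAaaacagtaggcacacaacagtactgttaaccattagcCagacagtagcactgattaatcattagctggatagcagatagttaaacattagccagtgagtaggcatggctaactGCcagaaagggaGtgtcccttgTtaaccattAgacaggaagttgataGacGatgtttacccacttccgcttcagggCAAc
Their windows were identical at 235 of 254 aligned columns (92.5%), and the longest run without a difference was 75 bases. In the other 20 pairs of the 7 genes the identity lay between 48.0% and 60.3% and the longest shared run between 7 and 15 bases.

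The second pair, Akr1c14 and Akr1c18, is shown because these neighbours had the largest kidney differences of the family. The Akr1c14 window is chr13:4059341-4059590 on the plus strand and the Akr1c18 window is chr13:4150647-4150896 on the minus strand. Capitals mark the longest runs of bases that both hold.
Akr1c14: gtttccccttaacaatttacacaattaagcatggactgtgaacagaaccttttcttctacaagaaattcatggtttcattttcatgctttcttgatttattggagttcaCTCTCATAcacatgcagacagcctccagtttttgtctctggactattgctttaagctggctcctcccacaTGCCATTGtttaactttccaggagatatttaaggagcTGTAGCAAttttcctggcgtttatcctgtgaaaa
Akr1c18: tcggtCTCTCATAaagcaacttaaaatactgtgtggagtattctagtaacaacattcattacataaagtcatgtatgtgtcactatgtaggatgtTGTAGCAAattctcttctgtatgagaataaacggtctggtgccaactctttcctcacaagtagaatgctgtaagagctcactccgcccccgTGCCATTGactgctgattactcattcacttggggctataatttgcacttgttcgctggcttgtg
There were 3 such runs, each 8 bases long. They began 141, 71 and 34 bases before the Akr1c14 start, and the same runs began 245, 64 and 155 bases before the Akr1c18 start. The windows were 55.9% identical. This identity lay in the upper part of the range of the family. Apart from Akr1c12 with Akr1c13, only Akr1c19 with Akr1c12 (59.0%) and Akr1c19 with Akr1c13 (60.3%) were more alike. The length of the shared runs was within the range of the other pairs. The array was designed on the mm9 build, and no array value was set against these positions.

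Values are log2 of the processed signal minus the array's 75th percentile, so 0 is the level of a probe brighter than 75% of the array, and 1 unit is a doubling. They compare samples for a given probe and not 1 gene with another. Between 58.6% and 71.1% of probes per array were well above background, and the 75th percentile of the signal ranged from 259 to 956 units. Each tissue was on a slide of its own, so tissue and slide cannot be told apart. Calls were made by limma (lmFit and eBayes) where p, after Benjamini-Hochberg adjustment over all features of the tissue, was below 0.05.

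A pair of arrays stood apart by markers of another organ. WAT of 10W mouse 1 held high signals of the epididymal genes Lcn5 (8.76), Crisp1 (7.58) and Adam7 (7.45). The summed level of 5 epididymis markers was 9.65 there and between -1.28 and 1.06 in the other WAT arrays. Lung of 90W mouse 1 held the hepatocyte genes Alb at 6.68 and Serpina1a at 6.63, and its sum of 6 hepatocyte markers was 7.75, against -1.17 to 3.07 in the other lungs. The age changes of the Akr1c genes in lung and WAT are given with and without these arrays.

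**Figure D1:**
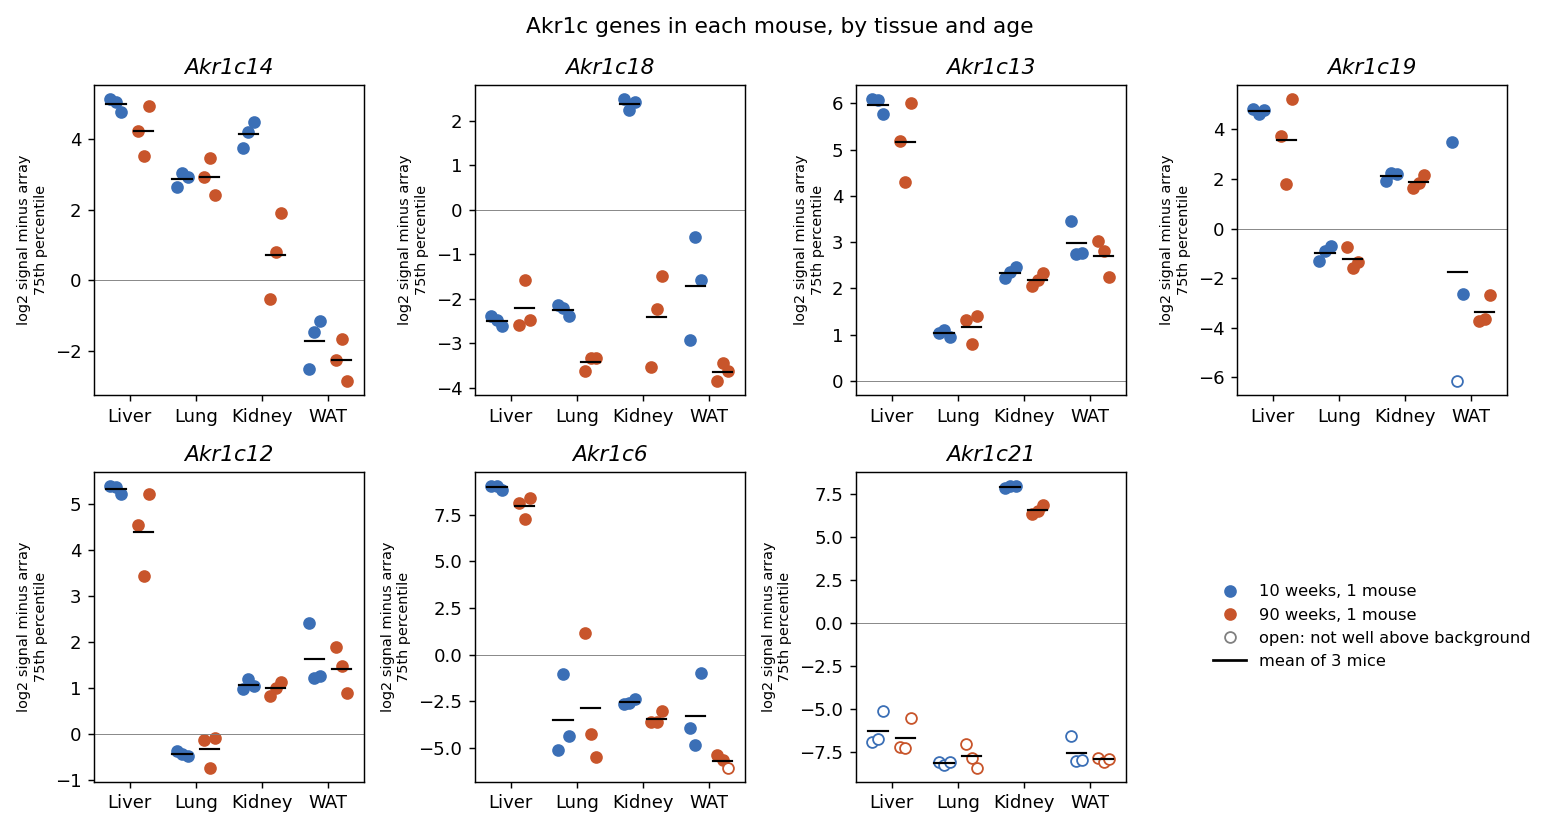
Level of each of the 7 measured Akr1c genes (log2 signal minus the array's 75th percentile) in each mouse, by tissue; blue is 10 weeks, orange 90 weeks, the line is the mean of 3 mice, and open points are not well above background. Akr1c6 was brightest in the liver, Akr1c21 was well above background in the kidney and in no other tissue, and kidney Akr1c18 went from 2.39 to -2.42.

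Akr1c18 encodes 20-alpha-hydroxysteroid dehydrogenase, which inactivates progesterone and is best known from the corpus luteum. In the young mice its signal was highest in the kidney, where the 3 mice measured 2.49, 2.24 and 2.43. In the aged kidneys it measured -3.54, -2.24 and -1.48. Every aged kidney lay far below every young one, and the aged kidneys were spread more widely. The means were 2.39 ± 0.13 at 10W and -2.42 ± 1.04 at 90W (SD, n = 3 each), a log2 difference of -4.81, or 28.0-fold. Among 31505 kidney features this was the 4th lowest difference. In whole tissue, fewer cells that express a gene and less RNA per cell cannot be told apart.

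In the lung Akr1c18 was also lower in the aged mice. The young lungs measured -2.15, -2.22 and -2.39 and the aged lungs -3.64, -3.33 and -3.34, with no overlap and little spread in either group. The log2 change was -1.18 (SE 0.13), a 2.27-fold fall, and passed the limma test (adjusted p = 0.0132). It was the single Akr1c gene called in the lung, 1 of 6 tested, where 2.89% of all features were called lower, 2.72% higher, and 24.2% were lower with no overlap of the groups. The call was lost without young mouse 1 (adjusted p = 0.0777) or young mouse 2 (adjusted p = 0.0731). Without aged mouse 1, the lung with hepatocyte genes, the change was -1.08 (adjusted p = 0.0223). The adipocyte marker sum was 5.21 to 5.96 in the young lungs and 2.96 to 4.66 in the aged lungs, with 2 of 5 markers called lower, and its part in the result was not tested.

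In WAT the young mice gave Akr1c18 values of -2.93, -0.63 and -1.59, and the aged mice -3.85, -3.44 and -3.64. The aged values lay below all the young ones, but the young mice were spread widely (SD 1.16, against 0.21 for the aged). The change of -1.92 (SE 0.57) did not pass the limma test (adjusted p = 0.149). Without young mouse 1, the array with epididymal genes, the change was -2.53 and passed (adjusted p = 0.0358). The hepatocyte marker sum was highest in young WAT mouse 3 (4.64), 3.15 in young mouse 2 and lower in mouse 1, but still above the aged WAT arrays (-0.43, 0.95 and -0.10). The leukocyte sum was 3.45 to 5.13 in the young and 6.72 to 7.87 in the aged WAT. Their part in the result was not tested.

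The liver did not show a lower Akr1c18 signal. Young livers measured -2.39, -2.48 and -2.61 and aged livers -2.60, -1.58 and -2.48. Aged mouse 2 was above the rest and the groups overlapped, with a log2 change of 0.28 (SE 0.28, limma adjusted p = 0.478). Without aged mouse 2 the sign turned, to -0.043. In a fit of all 24 arrays the age change in the liver exceeded that in WAT by 2.20 (SE 0.65, limma adjusted p = 0.0310), a difference of the kind called for 14.7% of 34167 features. The fit takes the 24 arrays as independent, which would not hold if a mouse gave more than 1 tissue. Leaving out any of the young livers, aged liver 2, WAT young mouse 2 or 3 or WAT aged mouse 1 put the adjusted p between 0.0519 and 0.0796, with differences from 1.65 to 2.25. Without WAT young mouse 1 it was 2.81 (adjusted p = 0.0029). Liver minus lung was 1.46 (adjusted p = 0.155) and lung minus WAT 0.74 (adjusted p = 0.622), with 12.5% and 2.89% of features called in those comparisons. For the 5 remaining genes measured in these tissues no such difference was called.

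**Figure D2:**
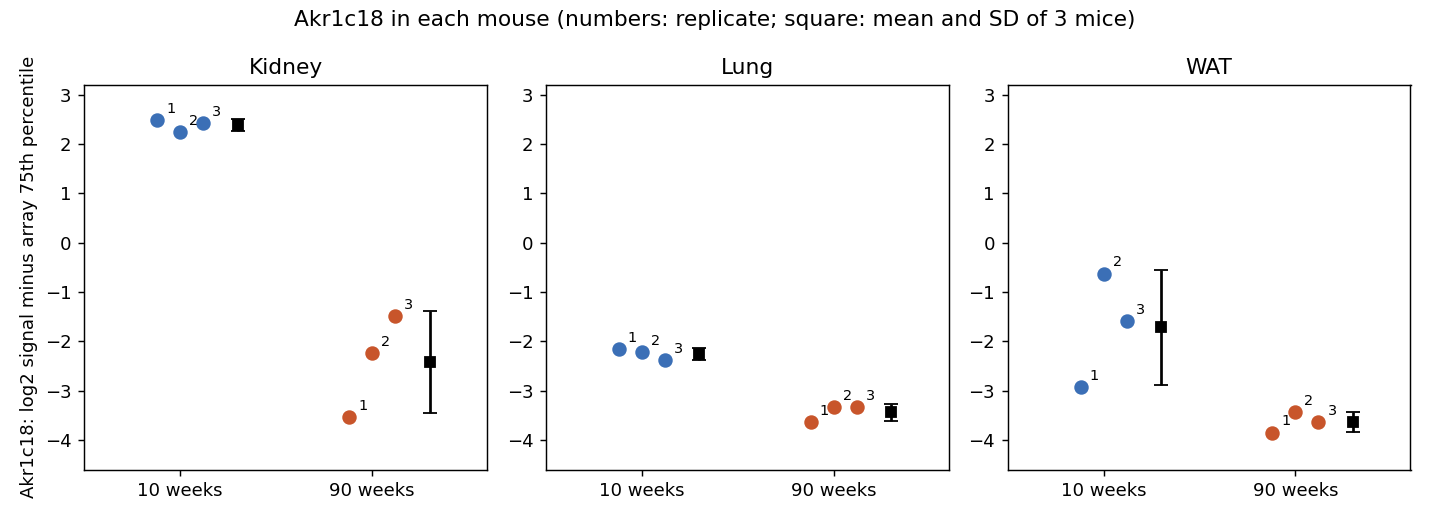
Akr1c18 level (log2 signal minus the array's 75th percentile) in each mouse of the kidney, lung and WAT, the 3 tissues without overlap of the ages, at 10 and 90 weeks, with replicate numbers; squares and bars are the mean and SD of 3 mice. The kidney gap is the widest of the 3, from 2.39 to -2.42; the liver, where the ages overlapped (log2 change 0.28), is not drawn.

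At 10W the Akr1c18 order was kidney, WAT, lung and liver. The step from kidney to WAT was 17.2-fold with no overlap, WAT and lung overlapped, and lung exceeded liver by 1.18-fold with ranges just apart. Among the aged mice the means ran liver, kidney, lung and WAT, and each neighbour overlapped the next. Thus the aged kidneys no longer stood apart from the other tissues. When arrays were scaled to spike-in spots the young order was kidney, lung, WAT and liver and the aged order started with kidney, which overlapped liver. With the normexp background the young liver came before the lung.

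Akr1c14, a 3-alpha-hydroxysteroid dehydrogenase that reduces dihydrosteroids such as dihydrotestosterone and dihydroprogesterone, was lower in the aged kidney too. Its brighter probe measured 3.75, 4.19 and 4.47 in the young kidneys and -0.53, 0.79 and 1.90 in the aged ones. The highest aged kidney lay below the lowest young one. The means were 4.14 ± 0.36 and 0.72 ± 1.22 (SD, n = 3 each), a log2 difference of -3.41, or 10.6-fold, the 24th lowest among the kidney features. The second probe gave 0.55, 0.84 and 1.17 at 10W and -4.16, -2.56 and -1.44 at 90W, a difference of -3.57 (11.9-fold). Both probes thus placed the mice in the same order within each age. Aged kidney 1 was lowest and aged kidney 3 highest for Akr1c14 as for Akr1c18, an order that every measured Akr1c gene shared. Over the 6 kidneys Akr1c14 and Akr1c18 correlated at r = 0.98, a description that includes the age difference of both. Akr1c21 correlated at r = 0.99 with Akr1c18 and 0.98 with Akr1c14, so the value was not particular to the pair.

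Outside the kidney no change of Akr1c14 passed the test. Liver values were 5.13, 5.04 and 4.76 at 10W and 4.23, 3.51 and 4.94 at 90W, overlapping through aged mouse 4 (log2 change -0.75, SE 0.35, limma adjusted p = 0.144). The lung held 2.63, 3.02 and 2.92 against 2.92, 3.45 and 2.42, a log2 change of 0.07 that turned to -0.091 with spike-in scaling and was 0.077 without aged mouse 1. WAT was the dimmest tissue, with -2.52, -1.47 and -1.16 against -2.26, -1.64 and -2.84, a change of -0.53, or -0.93 without young mouse 1. At 10W the order was liver, kidney, lung and WAT with no overlap between neighbours. At 90W it was liver, lung, kidney and WAT, again without overlap, so kidney and lung had changed places. Under spike-in scaling liver and kidney overlapped at 10W, as did kidney and lung, and liver and lung overlapped at 90W.

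Akr1c21, the 3(17)-alpha-hydroxysteroid dehydrogenase known from mouse kidney, was well above background in all 6 kidneys and in no liver, lung or WAT array. The young kidneys measured 7.81, 7.94 and 7.96 and the aged kidneys 6.33, 6.51 and 6.84. Each aged kidney was below each young one, with a log2 difference of -1.34 (2.53-fold), which was -0.77 after quantile normalization and -0.99 with spike-in scaling. Against the lowest signals called well above background elsewhere, the young kidney was at least 6007-fold brighter than liver, at least 13615-fold brighter than lung and at least 11835-fold brighter than WAT. In the aged mice these bounds were at least 2956-fold, 4143-fold and 4715-fold.

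Akr1c6, the mouse type 5 17-beta-hydroxysteroid dehydrogenase that converts androstenedione to testosterone, was brightest in the liver. The young livers measured 9.05, 9.02 and 8.84 and the aged livers 8.15, 7.28 and 8.41. The groups did not overlap. The log2 change of -1.02 (SE 0.30) was a 2.03-fold fall and passed the limma test (adjusted p = 0.0424). The call was lost without any of young mice 1, 2 and 3 (adjusted p = 0.112, 0.119 and 0.0767) and without aged mouse 1 (adjusted p = 0.0680), while the change stayed between -1.26 and -0.69. With quantile normalization it was -0.58 (adjusted p = 0.197), and over 16 alternatives the call was lost in 9, spike-in scaling among them (-0.86, adjusted p = 0.185).

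In the young mice the liver exceeded the kidney 2897-fold for Akr1c6, and kidney, WAT and lung overlapped each other in turn. The kidneys measured -2.64, -2.57 and -2.38 at 10W and -3.64, -3.63 and -3.01 at 90W. These did not overlap, with a log2 difference of -0.90 (1.86-fold), or -0.54 with spike-in scaling. WAT gave -3.93, -4.86 and -1.004 against -5.39, -5.63 and -6.05, the last of them not well above background, a change of -2.43 (SE 0.96) that did not pass the test (limma adjusted p = 0.247) and was -2.76 without young mouse 1. Young WAT mouse 3 had both the highest Akr1c6 and the highest hepatocyte sum among the WAT arrays (4.64).

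The lung values of Akr1c6 spread over many doublings, -5.13, -1.04 and -4.38 at 10W and 1.18, -4.25 and -5.47 at 90W. The 2 highest lungs, aged mouse 1 and young mouse 2, also had the 2 highest hepatocyte marker sums, 7.75 and 3.07. The change of 0.67 (SE 1.96, limma adjusted p = 0.847) became -1.34 without aged mouse 1. The part of liver RNA in these values was not tested.

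**Figure D3:**
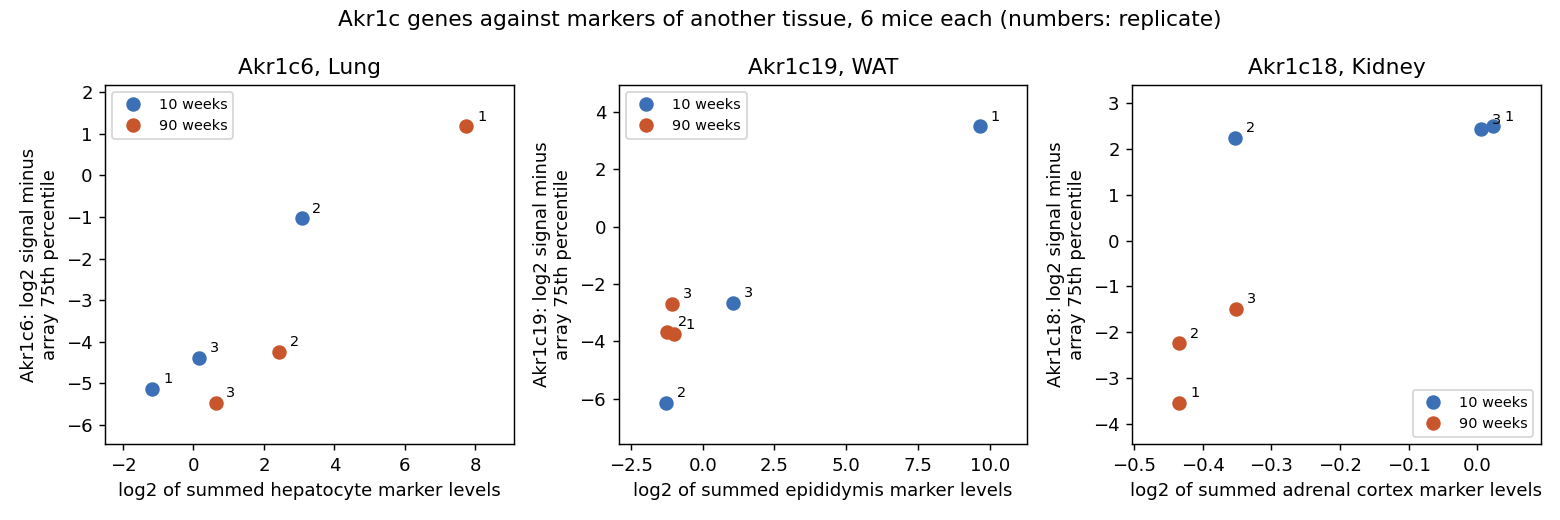
Level of an Akr1c gene (log2 signal minus the array's 75th percentile) against the log2 of the summed levels of another organ's markers, 1 point per mouse with its replicate number. The highest point of the lung panel is the array with the highest hepatocyte sum (Akr1c6 1.18, sum 7.75). In the WAT panel it is the array with the highest epididymis sum (Akr1c19 3.49, sum 9.65). The adrenal cortex sum in the kidneys spans -0.43 to 0.02.

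Akr1c12 and Akr1c13, close relatives that act on alcohols and on steroids, gave signals that rose and fell together. Over 24 arrays they correlated at r = 0.998, and within the 6 arrays of a tissue by r = 0.99 (liver), 0.97 (lung and WAT) and 0.81 (kidney). Whether a probe of either gene also binds the other's transcript was not tested, so the 2 are not independent observations. Livers measured 5.40, 5.37 and 5.21 at 10W and 4.55, 3.43 and 5.22 at 90W for Akr1c12. For Akr1c13 they measured 6.09, 6.06 and 5.76 and then 5.18, 4.31 and 6.02. Both genes had their lowest liver value in aged mouse 2 and a young-like value in aged mouse 4. The changes of -0.93 (SE 0.42, limma adjusted p = 0.134) and -0.81 (SE 0.40, limma adjusted p = 0.167) were not called.

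Beyond the liver the age groups of both genes overlapped. Kidney Akr1c12 was 0.97, 1.19 and 1.06 against 0.83, 1.01 and 1.14, and kidney Akr1c13 was 2.21, 2.35 and 2.45 against 2.04, 2.18 and 2.34. With spike-in scaling every aged kidney lay above every young one for both genes. Akr1c12 then ranged from 0.05 to 0.30 at 10W and from 0.38 to 0.52 at 90W. Akr1c13 ranged from 1.44 to 1.47 and then from 1.59 to 1.69. Both genes sit between Akr1c18 and Akr1c6 on the chromosome, genes that were lower in the aged kidney. Lung changes were 0.12 and 0.14 and WAT changes -0.22 and -0.29, and none of the 4 was called by limma. The lung changes turned to -0.045 and -0.019 with spike-in scaling, and without aged mouse 1 they were 0.026 and 0.070. Without young mouse 1, whose Akr1c12 level of 2.42 was the highest in WAT, the WAT changes were 0.17 and -0.058. Both genes ran liver, WAT, kidney and lung at either age, with WAT and kidney overlapping at 90W.

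Akr1c19 encodes an NAD-dependent enzyme that oxidises hydroxysteroids and other alcohols. Young livers were close together at 4.81, 4.64 and 4.78, whereas the aged livers gave 3.72, 1.79 and 5.23. Aged mouse 4 lay above all young mice and aged mouse 2 far below them, so the change of -1.17 (SE 0.76, limma adjusted p = 0.276) was within the spread. Kidneys measured 1.91, 2.23 and 2.21 against 1.62, 1.85 and 2.15 and lungs -1.29, -0.92 and -0.70 against -0.74, -1.59 and -1.34, overlapping in both tissues. The lung change was -0.25, or -0.50 without aged mouse 1. WAT gave 3.49, -6.14 and -2.66 against -3.74, -3.66 and -2.68, where young mouse 2 was not well above background. The value of 3.49 belonged to the array with epididymal genes, and the change of -1.59 (SE 2.30) became 1.04 without it. At 10W the order was liver, kidney, lung and WAT, and lung and WAT overlapped. Kidney exceeded lung 8.48-fold.

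**Figure D4:**
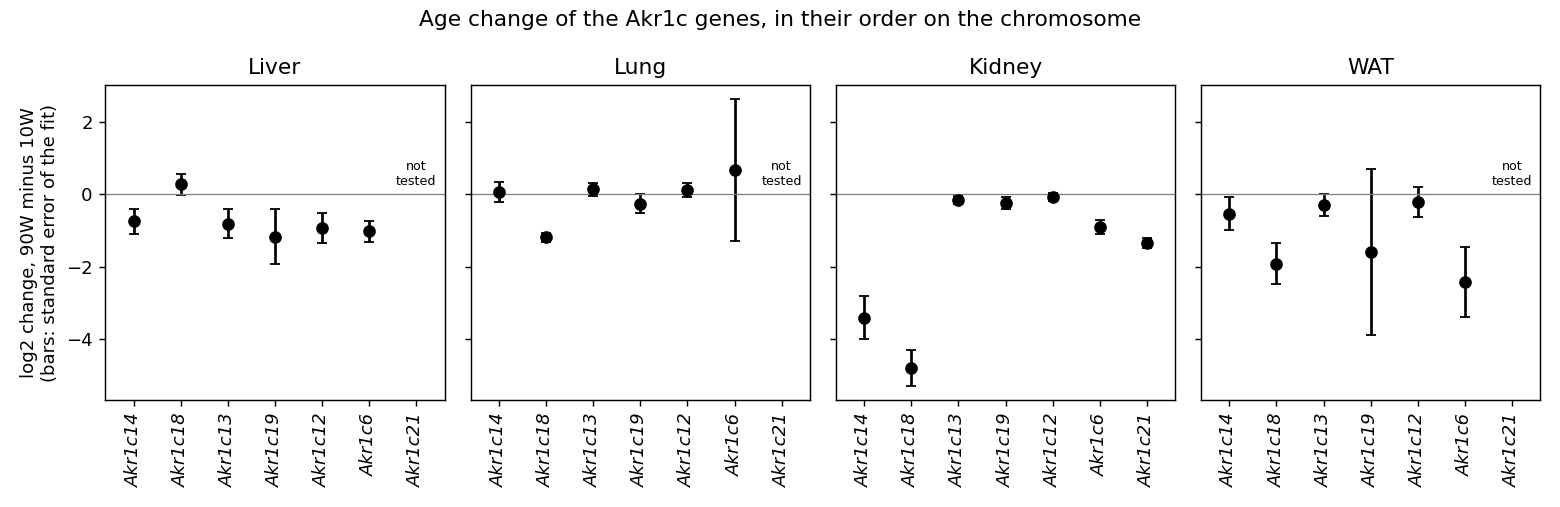
Log2 change from 10 to 90 weeks of each measured Akr1c gene in 4 tissues, in chromosome order, with bars for the standard error of the fit (3 mice per age). In the kidney the adjacent Akr1c14 (-3.41) and Akr1c18 (-4.81) had the lowest values, next to Akr1c13 at -0.15.

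Counted over the family, kidney groups did not overlap for 4 of 7 genes (Akr1c18, Akr1c14, Akr1c21 and Akr1c6), all lower at 90W, beside 47.6% of all kidney features lower without overlap. In the limma fit 42.6% of kidney features were called lower and 20.6% higher. The median difference of the 7 genes was -0.90, and that of all kidney features -0.23. Scaling to spike-in spots moved the median of all kidney features to 0.12 and left Akr1c18 at -4.45 and Akr1c14 at -3.06, while Akr1c12, Akr1c13 and Akr1c19 turned to 0.27, 0.20 and 0.11. The age groups of Akr1c12 and Akr1c13 were then apart, with the aged kidneys higher.

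In the liver 1 of 6 genes was called, Akr1c6, and its groups were the only ones apart, where 17% of features were called lower, 10.5% higher and 33.1% were lower without overlap. The median change of the 6 was -0.87 beside -0.20 for all liver features. Aged mouse 4 had the highest aged value for Akr1c6, Akr1c12, Akr1c13, Akr1c14 and Akr1c19. Without it all 5 were called lower (limma adjusted p from 0.0276 to 0.0432). That fit called 4551 of 26972 liver features lower and 2335 higher. Over the 6 livers these 5 genes correlated with each other at r = 0.88 to 0.998, so they are not independent observations. In WAT none of 6 was called by limma, where 0.579% of features were called lower and 2.01% higher. At an unadjusted p under 0.05 there were 2 (Akr1c6 and Akr1c18), beside 9.42% of features that were lower at that threshold. The aged values of the same 2 genes all lay below the young ones, beside 15% of features of that kind. The lung median was 0.09 beside -0.08 for all features.

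Cell markers moved with age in these tissues. In the kidney the sum of 8 proximal tubule markers was 9.65 to 9.73 at 10W and 8.10 to 8.71 at 90W, with 8 of 8 called lower, and the sum of 5 leukocyte markers was 1.69 to 1.87 and then 4.52 to 5.27, with 5 of 5 called higher. Aged kidney 1, lowest of the aged kidneys for every measured Akr1c gene, had the lowest proximal tubule sum. These genes include Akr1c12, Akr1c13 and Akr1c19, whose age groups overlapped in the kidney. Adrenal cortex markers in the kidneys summed to 0.02, -0.35 and 0.0048 at 10W and -0.43, -0.43 and -0.35 at 90W, with 1 of 4 tested called lower (Nr5a1, a steroidogenic transcription factor, -0.57, SE 0.10, limma adjusted p = 0.00328). Of the 7 listed markers, Nr5a1, Cyp21a1, Star and Mc2r were well above background in all 6 kidneys, and Cyp11a1 and Cyp11b2 in none. Liver hepatocyte markers summed to 11.6 to 11.8 at 10W and 10.99 to 11.2 at 90W, with 2 of 6 called lower. Liver leukocyte markers summed to 3.46 to 3.59 at 10W and 5.12 to 5.65 at 90W, with 3 of 5 called higher. The part of these shifts in the Akr1c values was not tested.

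Other genes of steroid metabolism were read in the same fits, from a list of 38 genes of which 36 had a probe. In the kidney 22 of 30 tested genes fell and 4 rose, with a median of -0.70. Hsd3b2 and Hsd3b1, of the 3-beta-hydroxysteroid dehydrogenase family, changed by -2.17 (SE 0.25, limma adjusted p = 0.00077) and -1.79 (SE 0.32, limma adjusted p = 0.00365). Hsd17b2, which oxidises estradiol and testosterone, changed by -2.16 (SE 0.28, limma adjusted p = 0.00116), and the carbonyl reductase Cbr3 rose by 2.10 (SE 0.15, limma adjusted p = 0.000164). These 22 lower calls among 30 genes stand beside the 42.6% of all kidney features called lower.

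In the liver 8 of 29 tested genes fell and 1 rose, with a median of -0.44, beside 17% of all liver features called lower and 10.5% higher. Hsd3b5, a liver 3-beta-hydroxysteroid dehydrogenase of male mice, gave 5.91, 6.13 and 5.35 at 10W and -2.73, -5.55 and 2.76 at 90W. Aged mouse 2 was not well above background and aged mouse 4 was the highest of the aged, the same order of the 3 as for 5 Akr1c genes. Its change was -7.64 (SE 1.85, limma adjusted p = 0.0268). Srd5a1, a steroid 5-alpha-reductase, fell by 2.42 (SE 0.55, limma adjusted p = 0.0224) and Hsd3b1 by 2.13 (SE 0.52, limma adjusted p = 0.0274). Genes of the Hsd3b family are near copies, and a probe may read more than 1 of them. In the lung none of 24 was called by limma. In WAT 1 of 23 was called, Cyp11a1, the cholesterol side-chain cleavage enzyme, which rose by 2.23 (SE 0.30, limma adjusted p = 0.0234) from a level where 1 of 3 young arrays was well above background. No gene of the list was called in WAT when any single WAT array but young mouse 1 was left out.

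Of 8 other aldo-keto reductases, 5 fell and 2 rose in the kidney, beside 42.6% of kidney features called lower and 20.6% higher. In the liver 2 fell and 3 rose, beside 17% and 10.5% of features, and the aldose reductase-like Akr1b7 rose by 2.12 (SE 0.65, limma adjusted p = 0.0491). In WAT 1 of 7 was called, the related Akr1b8, which rose by 2.69 (SE 0.43, limma adjusted p = 0.0397). No gene of this list was called in the lung.

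Genes with the most similar profile over the 24 arrays were found among 18566 genes by Pearson r, as a description in which arrays of a tissue share a slide. Akr1c6 was most like C9 (0.99), a complement component made by the liver, followed by Rdh7 and Gm10319. Akr1c21 was most like Slco1a6 (0.996), an organic anion transporter, followed by Dleu7 and Slc12a1, the sodium-potassium-chloride cotransporter of the kidney tubule. Akr1c12 and Akr1c13 both had Nipsnap3b first (0.987 and 0.989), then Siae and Oaf, and Oaf and Huwe1. Akr1c14 was nearest to Gclc (0.964), a subunit of the enzyme that starts glutathione synthesis, then Dnaic1 and Selenbp1. Akr1c19 was nearest to Hook1 (0.946), then Stard10 and Cpn1. Akr1c18 had the weakest nearest match, Galnt1 (0.926), then Tm2d2 and Ccdc91.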

How the data were processed

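Total RNA of 24 samples was labelled with Cy3 and hybridized to Agilent arrays. Per the file headers the authors read the scans with Feature Extraction 11.0.1.1, and the deposited files hold each spot's background-subtracted processed signal, an intensity that is not scaled between arrays. A human kit is named in the methods, while the files carry a mouse design on mm9. Accessions without version were matched to RefSeq (GRCm38.p6), which named 32994 of 56605 probes (58.3%). Spots the software called non-uniform or population outliers were dropped, log2 signals were averaged per probe, and values were centred on each array's 75th percentile. A probe entered a tissue's fit if 3 or more of the 6 arrays had it well above background, and a gene was read from its brightest probe. No spot was saturated. Ages were compared within a tissue by limma 3.58.1 in R 4.3.3, and age changes between tissues in 1 fit of all 24 arrays. The fits were tested on simulated data. Log2 changes and their standard errors come from these fits, and SDs are between mice. The limma p-values weigh the difference of the group means against the spread between samples, moderated over all features of the fit. With 3 mice per group the number of samples limits the precision.

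The genes, gene lists and tests were chosen with earlier results of these data known. Besides the Akr1c genes, the text names in each tissue the 4 largest called changes without overlap among the steroid and aldo-keto reductase lists, and the 3 genes of the most similar profile per Akr1c gene. The alternatives were normexp background (offset 16), quantile normalization, median centring, spike-in scaling, no filter, the mean of a gene's probes, 1 fit of all arrays, the replicate block, the methods' unpaired test, and each mouse left out. Young and aged samples of 1 number are different animals and were not paired. The table of the whole series was not used here.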

Additional observations from a re-analysis of the deposited data

Results flagged for a closer look

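The age change of Akr1c18 differed between the liver and WAT, a comparison in which 14.7% of 34167 features were called. Liver minus lung (limma adjusted p = 0.155) and lung minus WAT (limma adjusted p = 0.622) were not called. In the fit of all 24 arrays the liver change exceeded the WAT change by 2.20 on the log2 scale (SE 0.65, limma adjusted p = 0.0310), with a liver change of 0.28 and a WAT change of -1.92. That fit takes the arrays as independent, and whether tissues shared a mouse is not stated. Over 24 alternatives the difference lay between 1.65 and 2.81, with a limma adjusted p between 0.0029 and 0.0796, and it was called in 17 of them. The difference of 2.81 was found without WAT young mouse 1, the array with epididymal genes. The 7 that lost the call each left out 1 array: any of the 3 young livers, aged liver 2, WAT young mouse 2 or 3, or WAT aged mouse 1.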

How the results depend on the processing

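Counts of called genes moved with the settings, as did the calls over all features, and the causes were not tested. The Akr1c count in the liver (1) was 0 with quantile normalization, spike-in scaling, 1 fit of all 24 arrays, the replicate block and the methods' t-test with adjustment, and 0 to 5 with a mouse left out. In the lung (1) it was 0 with the fit of all arrays, the replicate block and the adjusted t-test, and 0 to 1 with a mouse left out. The main lung fit called 825 of 30327 features higher and 875 lower, and the fit of all arrays 602 and 371 of 34167. The replicate block called 1 higher and 0 lower, and the adjusted t-test 99 and 132. Without young lung 1 there was 1 call in each direction. In WAT (0) the Akr1c count was 1 with the fit of all arrays and the unadjusted t-test, and 0 to 1 with a mouse left out. The main WAT fit called 605 of 30063 features higher and 174 lower, and the fit of all arrays 3213 and 3167 of 34167. The unadjusted t-test called 2646 and 2668, the adjusted t-test 1 and 0, and the replicate block 323 and 41. Kidney groups without overlap, counted in either direction, numbered 4 to 6 over 14 alternatives. With spike-in scaling they included Akr1c12 and Akr1c13, where every aged kidney was higher than every young one. Steroid metabolism genes called in the liver (9) were 17 with all arrays in 1 fit, 5 with the replicate block, 2 with the adjusted t-test and 2 to 11 with a mouse left out. The main liver fit called 2928 of 27906 features higher and 4749 lower, and the fit of all arrays 3859 and 7979 of 34167. The replicate block called 1068 and 630, and the adjusted t-test 1321 and 1785. Quantile normalization called 3229 and 3820, and spike-in scaling 2749 and 854. With a mouse left out the lower calls ranged from 889 to 4551. In the lung (0) the steroid metabolism genes called were 1 with spike-in scaling, 1 with all arrays, 3 with the unadjusted t-test and 0 to 1 with a mouse left out. Over all lung features spike-in scaling called 574 higher and 1374 lower, and the unadjusted t-test 2309 and 5027. In the kidney (26) the steroid metabolism genes called were 16 with all arrays. That fit called 4532 of 34167 features higher and 9126 lower in the kidney, against 6483 and 13410 of 31505 in the main fit. In WAT (1) the steroid metabolism genes called were 0 with quantile normalization, the replicate block and the adjusted t-test. They were 3 with all arrays and with the unadjusted t-test, and 0 to 1 with a mouse left out. Genes whose age change differed between tissues (1) were 3 with the replicate block and 0 to 3 with a mouse left out. For these comparisons the share over all features was counted in the main fit alone. It was 12.5% for liver minus lung, 14.7% for liver minus WAT and 2.89% for lung minus WAT. Within a tissue, young and aged samples of 1 number are different animals, and their deviations from the group means correlated at -0.17 to 0.16. Whether samples of 1 number and age from different tissues came from 1 mouse was not tested.

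Signs that turned belonged to values that were not called or, in the kidney, not tested. With spike-in scaling Akr1c14, Akr1c12 and Akr1c13 in the lung became -0.091, -0.045 and -0.019, and Akr1c12, Akr1c13 and Akr1c19 in the kidney 0.27, 0.20 and 0.11. In the kidney Akr1c12 was 0.016 with normexp and 0.013 with quantile normalization, and Akr1c13 0.061 with the latter. With a mouse left out, Akr1c18 in the liver ranged from -0.043 to 0.47, lung Akr1c6 from -1.34 to 1.98, lung Akr1c14 from -0.19 to 0.33, lung Akr1c12 from -0.0015 to 0.32, WAT Akr1c19 from -3.78 to 1.04 and WAT Akr1c12 from -0.46 to 0.17. Of 42 steps in the tissue orders, 33 stayed with spike-in scaling and 38 with normexp. The share of all called features that were higher was 38.1% in the liver, 48.5% in the lung and 32.6% in the kidney, and with spike-in scaling 76.3%, 29.5% and 63.7%. With normexp it was 28.0% in the liver and 58.4% in the lung. Spike-in scaling moved the median of all features from -0.20 to -0.04 in the liver, -0.08 to -0.24 in the lung and -0.23 to 0.12 in the kidney.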
